A study of Mus musculus with 8 samples.

Results

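Ribosomal protein genes of both mouse ribosomes were described in macrophages sorted from MC38 tumors, in libraries labelled Atg5 KO and Atg5 WT. The members were the protein-coding rows of the deposited expression table whose names start with Rpl or Rps and a digit, together with Rplp0, Rplp1, Rplp2 and Rpsa, and those whose names start with Mrpl or Mrps and a digit, leaving out the Rps6k kinases. This gave 183 of the 35275 genes in the table. Of these, 106 carry names of the cytosolic ribosome and 77 names of the mitochondrial ribosome. The cytosolic names comprised 46 genes of the large subunit, 31 of the small subunit, 10 paralogs or other unusual names and 19 rows typed as protein-coding whose names end in a pseudogene suffix (-ps). The mitochondrial names comprised 48 Mrpl genes, counted with the large subunit, and 29 Mrps genes, counted with the small subunit. Among the Mrps genes, Mrps18a and Mrps30 sit in the large subunit despite their names. For the other Mrpl and Mrps genes, Mrps36 included, membership rests on the name alone.

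Cytosolic ribosomes translate the mRNAs of the nucleus, and their proteins are made in large and nearly matched amounts from mRNAs that begin with a pyrimidine tract, the 5′ terminal oligopyrimidine (TOP) motif, through which the kinase complex mTORC1 controls their translation. Mitochondrial ribosomes translate the few mRNAs of the mitochondrial genome, which encode core subunits of the respiratory chain, and all their proteins are encoded in the nucleus and imported. Autophagy, which needs Atg5 for the growth of the autophagosome membrane, delivers ribosomes and mitochondria to the lysosome, where their proteins and RNA are broken down.

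The series held 8 RNA sequencing libraries, each from a separate female C57BL/6J mouse of 6 to 8 weeks that received 100000 MC38 cells, a mouse colon adenocarcinoma line, under the skin of the flank and was sampled on day 21. Of these mice, 4 were labelled Atg5 KO (Atg5 flox/flox with LysMcre) and 4 were labelled Atg5 WT (Atg5 flox/flox without Cre), so that every mouse carried the floxed allele. LysMcre drives Cre from the Lyz2 locus in macrophages and granulocytes, and leaves Atg5 intact in the tumor cells and in other host cells. Macrophages were sorted as CD11b+ F4/80+ Ly6G- Ly6C- cells.

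Atg5 went against the label. It was at 16.2, 13.8, 12.8 and 13.3 FPKM in KO-labelled mice 1 to 4, against 6.73, 3.50, 3.93 and 3.91 FPKM in Atg5 WT mice 1 to 4, and the table gives 1 value for the whole gene and none for the floxed exon. The groups are therefore called KO-labelled and Atg5 WT throughout, and if the labels were exchanged, every difference between the groups given here would change its sign. FPKM, fragments per kilobase of gene and per library total, is a level per length, and the libraries held 14799546 to 25555195 fragments in genes. The libraries of both mice numbered 1 stood apart on the first principal component, which held 58.9% of the variance, and KO-labelled mouse 2 had the lowest share of ribosomal protein fragments. Of 10 macrophage markers, 9 were in the table and all 9 averaged at least 1 FPKM. Their summed levels were 4814 to 7188 FPKM in KO-labelled libraries and 6215 to 7494 FPKM in Atg5 WT libraries. All 8 monocyte markers also averaged at least 1 FPKM, although the cells were sorted as Ly6C-. Summed monocyte markers were 1251 to 1641 FPKM in KO-labelled and 1021 to 1471 FPKM in Atg5 WT libraries, and their source was not tested. Summed fibroblast markers were 399 FPKM in KO-labelled mouse 1 and 215 FPKM in Atg5 WT mouse 1, and 30.9 to 67.7 FPKM in the other 6 libraries, with 7 of 10 markers averaging 1 FPKM or more. Summed markers of cycling cells were 413, 323, 261 and 348 FPKM in KO-labelled mice 1 to 4, against 444, 279, 288 and 268 FPKM in Atg5 WT mice, highest in both mouse 1 libraries, and their part in the levels below was not tested. Summed neutrophil markers were 45.5 to 73.8 FPKM in KO-labelled and 36.5 to 62.3 FPKM in Atg5 WT libraries. In the same order, dendritic cell markers were 30.2 to 47.8 and 35.4 to 64.1 FPKM. Epithelial tumor markers were 36.4 to 70.4 and 43.9 to 75.4 FPKM, and endothelial markers 11.98 to 19.8 and 12.2 to 20.4 FPKM. Of the T and NK cell markers, 6 of 10, Cd3e and Cd3d among them, were under 1 FPKM in every library. Of the B cell markers used, 3 of 6 in the table, Ms4a1 and Pax5 among them, were under 1 FPKM in every library, while the summed level was 15.2 FPKM in KO-labelled mouse 1 and 53.7 FPKM in Atg5 WT mouse 1, and 3.85 to 9.53 FPKM in the other 6 libraries.

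Promoters of members described below are shown because the TOP motif marks the cytosolic family and because ETS and NRF1 sites are known in promoters of mitochondrial protein genes. RefSeq windows (build GRCm38.p6), from 250 bases before to 50 bases after the listed transcription start, were found for 134 of the 183 members. The search used TOP, here a C followed by at least 4 C or T bases on the sense strand, beginning within 5 bases of the listed start, and, on both strands of the whole window, CCGGAAG for the ETS family, GCGCATG for NRF1 and AAGATGG for YY1. The sequences below hold 20 bases before and 20 bases from the start, 5′ to 3′ on the gene's strand, with matches in capitals. Only stretches with a match are printed, and that of Mrpl44, which held a TOP match, is left out. The same stretches of Rps12, Mrps10, Mrps18b and Mrpl28, which are also described below, held no match.
Rpl35, large subunit, chr2:39005112-39005151, minus strand, TOP: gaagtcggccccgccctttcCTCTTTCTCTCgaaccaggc
Rps6, small subunit, chr4:86857348-86857387, minus strand, TOP: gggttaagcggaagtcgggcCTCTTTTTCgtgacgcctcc
Rps9, small subunit, chr7:3704021-3704060, plus strand, TOP: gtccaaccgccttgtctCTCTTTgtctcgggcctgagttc
Mrps33, mitochondrial small subunit, chr6:39810917-39810956, minus strand, TOP: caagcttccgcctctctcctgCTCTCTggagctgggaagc
Mrps12, mitochondrial small subunit, chr7:28741802-28741841, minus strand, ETS: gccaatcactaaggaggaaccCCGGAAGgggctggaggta
Mrpl33, mitochondrial large subunit, chr5:31613931-31613970, plus strand, NRF1 then ETS: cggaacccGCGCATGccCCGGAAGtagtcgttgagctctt
TOP was matched in 27 of 57 cytosolic subunit genes with a window (47.4%) and in 17 of 68 mitochondrial genes (25%). Of the 7931 protein-coding genes that were tested and had a window, 23.7% had a match. A tract that begins further from the listed start was not matched, so these shares depend on where the starts are listed. The ETS letters were in 24 of the cytosolic windows (42.1%) and 25 of the mitochondrial ones (36.8%), against 21.9% of the same protein-coding genes. NRF1 letters were in 14.0% of cytosolic, 11.8% of mitochondrial and 8.60% of these protein-coding windows. For YY1 the shares were 15.8%, 19.1% and 8.99%. The 27 cytosolic genes with a TOP match had a median difference between the groups of -0.055 on the log2 scale described below. The 30 without a match had -0.020. Among mitochondrial genes, the 24 tested with the ETS letters had a median difference of -0.036, and the 43 without had 0.023. Their medians with and without were 0.0012 and 0.0095 for TOP, 0.10 and 0.0059 for NRF1, and -0.076 and 0.022 for YY1. In cytosolic subunit genes they were -0.024 and -0.035 for ETS, -0.058 and -0.024 for NRF1, and -0.035 and -0.029 for YY1. Genes with a match were thus lower for some motifs and higher for others, and these splits were not tested.

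The cytosolic family was expressed far above the mitochondrial one in every library. Its 77 subunit genes had a median level of 556 FPKM over the 8 libraries, and the 77 mitochondrial genes had a median of 11.95 FPKM. Summed over members, the cytosolic level was 33.2, 30.5, 32.4 and 34.6 times the mitochondrial level in KO-labelled mice 1 to 4, and 33.8, 34.6, 32.6 and 32.4 times in Atg5 WT mice 1 to 4. The ratios of the groups overlapped, and KO-labelled mouse 2 had the lowest.

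Cytosolic members took 4.11, 3.55, 4.20 and 4.56% of all fragments in KO-labelled mice 1 to 4, against 4.50, 4.24, 4.17 and 4.03% in Atg5 WT mice 1 to 4. The group means were 4.11 ± 0.416% in KO-labelled and 4.24 ± 0.196% in Atg5 WT libraries (SD, n = 4 each), and the difference of -0.130 percentage points was smaller than either SD. Mitochondrial members took 0.170, 0.157, 0.173 and 0.177% in KO-labelled mice, against 0.180, 0.163, 0.169 and 0.166% in Atg5 WT mice. Here the means were 0.169 ± 0.00898% in KO-labelled and 0.170 ± 0.00732% in Atg5 WT libraries (SD, n = 4 each). For both ribosomes, KO-labelled mouse 2 was lowest of all 8 libraries and the groups overlapped. In sorted bulk RNA, fewer cells of a type and less RNA per cell cannot be told apart.

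**Figure D1:**
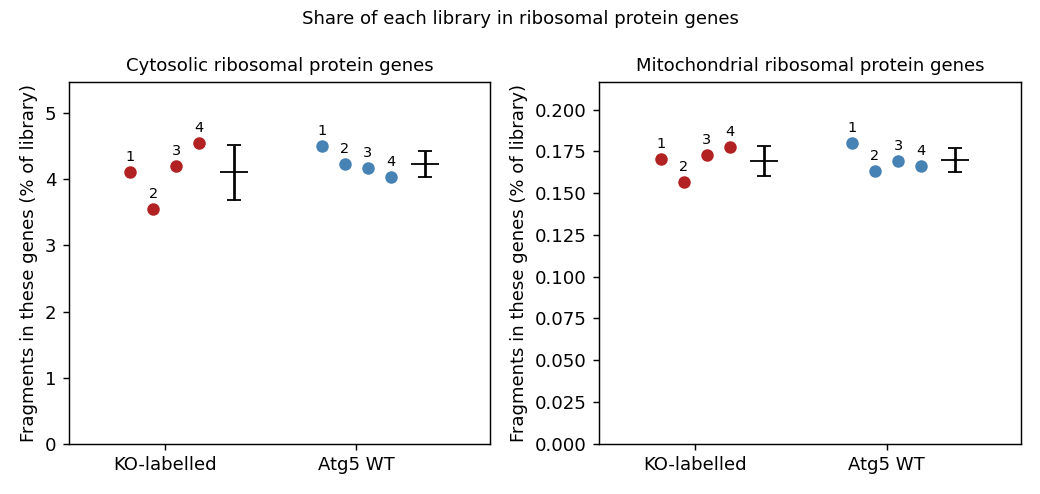
Share of each library's fragments in cytosolic (left) and mitochondrial (right) ribosomal protein genes, in percent on axes that start at 0. Points are libraries marked with the mouse number, and bars are the mean and SD of 4 libraries; the cytosolic shares run from 3.55 to 4.56% in KO-labelled and from 4.03 to 4.50% in Atg5 WT libraries.

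Within each ribosome the balance of the subunits was nearly the same in all libraries. Large-subunit fragments were 1.41 to 1.43 times the small-subunit fragments for the cytosolic ribosome in KO-labelled libraries, and 1.41 to 1.44 times in Atg5 WT libraries. For the mitochondrial ribosome the ratio was 1.94 to 2.09 in KO-labelled and 2.03 to 2.13 in Atg5 WT libraries, with KO-labelled mouse 2 again the lowest. With Mrps18a and Mrps30 counted in the large subunit, a step added after the data were seen, it was 2.11 to 2.31 in KO-labelled and 2.22 to 2.33 in Atg5 WT libraries. The ranges of the groups overlapped for both ribosomes.

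Levels per length varied widely within each ribosome. Rplp1, an acidic protein of the stalk that recruits elongation factors, had the highest mean level, 1646 FPKM. Its partner Rplp2 was at 481 FPKM, and Rplp0, which anchors both to the large subunit, at 1108 FPKM. Rps2 was highest in the small subunit with 1269.7 FPKM. The middle of the large-subunit genes lay between 258 and 698 FPKM (quartiles) and that of the small-subunit genes between 484 and 780 FPKM. Under 100 FPKM were 4 of the 46 large-subunit and 1 of the 31 small-subunit genes.

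The lowest 3 cytosolic genes all lie in exons shared with another gene. Rpl24 was listed at 1.09 FPKM, on 3 to 25 fragments a library, and 47.0% of its exon bases overlap other genes on the same strand, in GENCODE release 21 for mouse. Rpl23a, which lies at the exit of the peptide tunnel, had 20.1 FPKM and 62.3% overlap on either strand. Rpl35, also at the tunnel exit, had 45.2 FPKM and 66.2% overlap, all with genes on the opposite strand, of which Wdr38 was listed at 0.00 to 0.10 FPKM. Rps15a, next in order, had 59.2 FPKM and no overlapping exon. The 74 subunit genes with under 40% overlap had a median of 557 FPKM and a lowest value of 59.2 FPKM. The rule for counting fragments in shared exons is not stated by the labels or the table, and the part of the overlap in these low values was not tested.

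Among the mitochondrial genes, the 3 with at least 40% exon overlap were at 0 to 5.64 FPKM, but the lowest genes with a level were not among them. Mrpl53 was listed at 0 in all 8 libraries, and 88.0% of its exon bases lie in a same-strand gene that the table names Ccdc142, at 0.85 to 1.74 FPKM. Mrps34, with 77.8% overlap, had 5.64 FPKM, and Mrps25, with 69.8%, had 3.51 FPKM. Lowest of the genes with a level was Mrps35, at 2.16 FPKM and with no overlapping exon, followed by Mrpl47, at 2.39 FPKM and with 24.2% overlap. At the top stood Mrpl52, a large-subunit protein, at 104 FPKM, and Mrps21, a small-subunit protein, at 48.4 FPKM. Across the 76 mitochondrial genes with a level, level and gene length had a Spearman correlation of -0.77, and across the 77 cytosolic subunit genes -0.47; FPKM itself divides by this length.

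**Figure D2:**
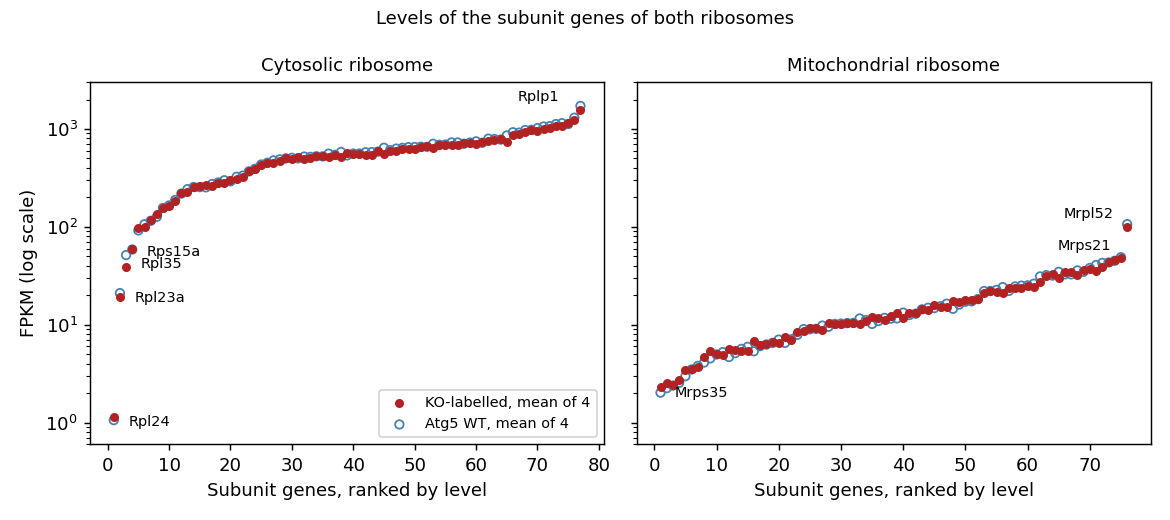
Mean FPKM (log axis) of each subunit gene of the cytosolic (left) and mitochondrial (right) ribosome, ranked from low to high by the mean over 8 libraries. Filled points are KO-labelled means and open points Atg5 WT means of 4 libraries; Rpl24, Rpl23a and Rpl35 fall below the other cytosolic genes, and Mrpl53, listed at 0, is not drawn.

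Many ribosomal protein genes have processed copies elsewhere in the genome, and fragments that match several places can be lost or split. Of the 77 cytosolic subunit genes, 76 shared at least 1 stretch of 50 bases with another GENCODE gene, against 52 of 76 mitochondrial genes. The median share of a gene's 50-base windows found in another gene was 24.4% for cytosolic and 3.33% for mitochondrial members. Rows of a pseudogene type named Rpl or Rps numbered 220, and 40 of them averaged 1 FPKM or more. They took 0.0198, 0.00995, 0.0138 and 0.0140% of fragments in KO-labelled mice 1 to 4, against 0.0229, 0.0136, 0.0149 and 0.0139% in Atg5 WT mice 1 to 4. These shares were highest in both mouse 1 libraries and lowest in KO-labelled mouse 2, and the groups overlapped. Levels of members with near copies are therefore uncertain.

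Paralogs that can replace a canonical protein in the ribosome were present at widely different levels. Rpl22l1, which can take the place of Rpl22, had 118, 81.1, 94.0 and 101 FPKM in KO-labelled mice 1 to 4, against 151, 85.6, 88.0 and 85.7 FPKM in Atg5 WT mice. Rpl22 had 112, 90.5, 95.6 and 93.8 FPKM in KO-labelled mice, against 117, 85.3, 84.4 and 81.4 FPKM in Atg5 WT mice. The pair thus stood close to parity, with a ratio of Rpl22l1 to Rpl22 of 1.05, 0.896, 0.983 and 1.08 in KO-labelled mice and 1.30, 1.00, 1.04 and 1.05 in Atg5 WT mice, the highest being Atg5 WT mouse 1. Rps27l, a paralog of Rps27, had 114, 107, 122 and 106 FPKM in KO-labelled mice, against 139, 114, 104 and 95.4 FPKM in Atg5 WT mice, and Rps27 averaged 967 ± 212 FPKM in KO-labelled and 981 ± 146 FPKM in Atg5 WT libraries (SD, n = 4 each). Rpl36al, the highest of these rows, had 119.9 ± 17.1 FPKM in KO-labelled and 126 ± 4.50 FPKM in Atg5 WT libraries, and its counterpart Rpl36a had 265 ± 43.4 and 254 ± 22.2 FPKM in the same order (SD, n = 4 each).

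Other paralogs were at or near the bottom of the table. Rpl10l, a retrogene copy of Rpl10 known from testis, was listed at 0 in all 8 libraries. Rpl39l, known from testis, averaged 0.249 FPKM, while Rpl39, a small protein lining the tunnel, averaged 386 ± 31.3 FPKM in KO-labelled and 392 ± 11.3 FPKM in Atg5 WT libraries (SD, n = 4 each). Rpl3l, known from heart and skeletal muscle, averaged 0.289 FPKM. Rps19bp1, which binds Rps19 and is named like a ribosomal protein without being a subunit, had 23.8 ± 1.16 FPKM in KO-labelled and 25.2 ± 1.33 FPKM in Atg5 WT libraries (SD, n = 4 each). Of the 19 rows with a pseudogene suffix, 7 averaged at least 1 FPKM, the highest being Rpl23a-ps3 at 6.58 FPKM.

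The groups were compared to ask whether mRNA of either ribosome differs when the host is labelled as lacking Atg5 in myeloid cells. No ribosomal protein gene passed the test. Differences were taken as KO-labelled minus Atg5 WT on log2(FPKM + 1), a scale that understates the change of low genes, for genes with a mean of at least 1 FPKM, with limma and Benjamini-Hochberg adjustment over the 11019 genes kept. In this comparison 0% of genes passed an adjusted p of 0.05, and 223 genes (2.02%) had an unadjusted p under 0.05, of which 132 were higher (1.2%) and 91 lower (0.826%) in KO-labelled libraries. The filter kept 91 of 106 cytosolic members, 77 subunit genes, 7 paralogs and 7 rows with a pseudogene suffix, and 76 of 77 mitochondrial members. Among the 91 cytosolic members, 0 had an unadjusted p under 0.05 in the higher direction and 1 in the lower, and among the 76 mitochondrial members there were 0 in either direction. The smallest adjusted p over all members was 0.999. Atg5 itself, whose groups were separate, had a limma adjusted p of 0.0987 and also did not pass.

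The medians stayed close to 0 for both ribosomes. The cytosolic members had a median difference of -0.035 and the mitochondrial members of 0.0055, beside 0.029 for all genes kept. By subunit as named, the medians were -0.046 for the cytosolic large, -0.031 for the cytosolic small, 0.0066 for the mitochondrial large and 0.0012 for the mitochondrial small subunit. Of the cytosolic members, 28 had positive and 63 negative differences, and of the mitochondrial members 40 and 36, while 58.5% of all genes kept had positive ones. Without KO-labelled mouse 2 the cytosolic median turned to 0.025 and the mitochondrial median was 0.024. Without both mouse 1 libraries they were -0.0092 and 0.044.

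Single members stayed nearer to 0 than genes at large. Differences under 0.1 in size were found for 62 of the 77 cytosolic subunit genes (80.5%) and 49 of the 76 mitochondrial genes (64.5%), beside 51.8% of all genes kept. Differences under 0.25 in size were found for 76 of the 77 and 74 of the 76, beside 90.7% of all genes kept. The median standard error of a difference was 0.13 for cytosolic subunit genes, 0.12 for mitochondrial genes and 0.15 for all genes kept.

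**Figure D3:**
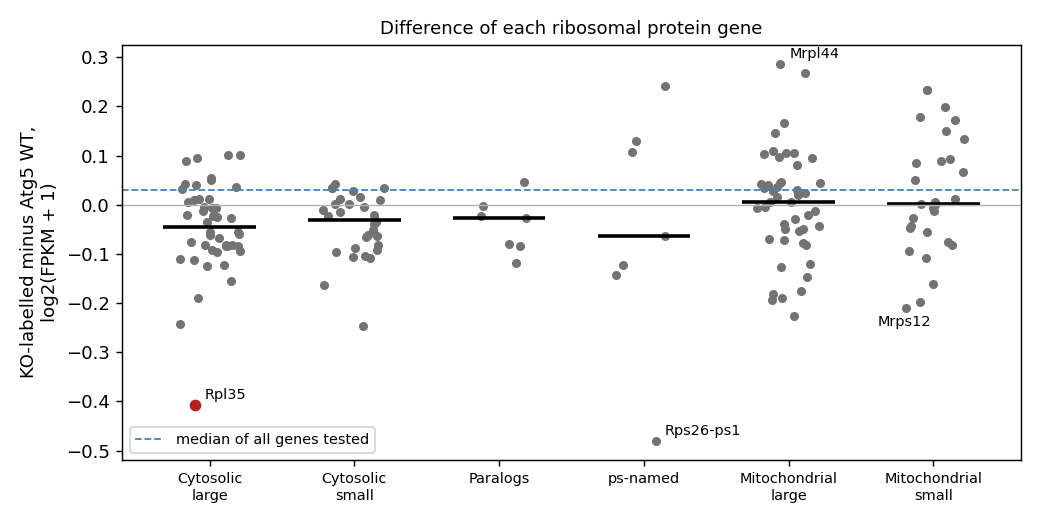
KO-labelled minus Atg5 WT difference on log2(FPKM + 1) for each member kept, by class; black lines are class medians and the dashed line is the median of all genes kept. Rpl35, in red, is the 1 member with an unadjusted p under 0.05, and Rps26-ps1 at -0.48 has the largest difference without reaching it.

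Rpl35 (chr2:39001580-39005624, minus strand, mm10) had 37.1, 31.1, 38.5 and 48.9 FPKM in KO-labelled mice 1 to 4, against 43.1, 53.0, 57.6 and 52.1 FPKM in Atg5 WT mice 1 to 4. Only KO-labelled mouse 4 lay within the range of the Atg5 WT libraries, so the groups overlapped, and within each mouse number the KO-labelled library was the lower. The difference was -0.41 ± 0.15 (standard error), with an exact permutation p of 0.0571 and a limma adjusted p of 0.999. Its p in limma before adjustment was 0.0224, and without KO-labelled mouse 2, where the difference was -0.31, it was 0.0622. Its exons overlap genes on the opposite strand, as given above, and 84.0% of its 50-base windows occur in another gene, so its value is uncertain.

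The other large-subunit genes with the smallest p in each direction differed less. Rpl41, the shortest ribosomal protein, had 554, 566, 918 and 915 FPKM in KO-labelled mice 1 to 4, against 644, 882, 983 and 926 FPKM in Atg5 WT mice, a difference of -0.24 ± 0.21. Both mouse 1 libraries and KO-labelled mouse 2 were low for Rpl41, and the groups overlapped. Rpl13 had 527, 359, 560.0 and 636 FPKM in KO-labelled mice, against 582, 551, 597 and 597 FPKM in Atg5 WT mice, with KO-labelled mouse 2 far below the other 7 libraries, and its difference of -0.19 shrank to -0.022 without that library. In the other direction stood Rpl30, Rpl22 and Rpl23, with differences of 0.10, 0.10 and 0.10. Rpl30, known also for binding selenoprotein mRNAs, had 128, 139, 133 and 144 FPKM in KO-labelled mice, against 137, 132, 116 and 122 FPKM in Atg5 WT mice, and these ranges overlapped. Rpl24 differed by 0.089 ± 0.23 on few fragments.

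The stalk genes differed by less than the spread between libraries. Rplp1 had 1644, 1117, 1744 and 1775 FPKM in KO-labelled mice 1 to 4, against 1878, 1667, 1731 and 1609 FPKM in Atg5 WT mice, with KO-labelled mouse 2 alone below the rest. Rplp0 had 1108, 856, 1066 and 1242 FPKM in KO-labelled mice, against 1202, 1216, 1104 and 1067 FPKM in Atg5 WT mice, and Rplp2 averaged 473 ± 55.6 FPKM in KO-labelled and 489 ± 24.2 FPKM in Atg5 WT libraries (SD, n = 4 each). The differences were -0.15, -0.11 and -0.055 for Rplp1, Rplp0 and Rplp2, and without KO-labelled mouse 2 they were 0.0012, -0.011 and -0.019.

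In the cytosolic small subunit, Rps9, whose TOP motif is shown above, had 620.0, 510.0, 659.7 and 762 FPKM in KO-labelled mice 1 to 4, against 684, 712, 724 and 708 FPKM in Atg5 WT mice. The Atg5 WT libraries were close together and the KO-labelled ones reached both below and above them, and the difference was -0.16 ± 0.13. Rps15a, Rps12 and Rps21, the 3 of smallest p in the other direction, differed by 0.042, 0.034 and 0.028, and each of these turned sign under some alternative. Rps6, the substrate of S6 kinases downstream of mTORC1, had 529, 415, 413 and 452 FPKM in KO-labelled mice, against 576, 413, 419.9 and 399 FPKM in Atg5 WT mice, a difference of 0.010 ± 0.14. Both mouse 1 libraries were the highest for Rps6. Rpsa, known also as a laminin receptor precursor, differed by -0.10, and Rps2, the most abundant of this subunit, by -0.093.

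No paralog or row with a pseudogene suffix had an unadjusted p under 0.05 in limma without the block described below. Rpl22l1 differed by -0.026 ± 0.20, Rps27l by -0.0017 ± 0.13 and Rpl36al by -0.083 ± 0.12, while their counterparts Rps27 and Rpl36a differed by -0.035 and 0.054. Rpl39 differed by -0.024, and Rps19bp1 by -0.081 ± 0.090, with overlapping groups and an exact permutation p of 0.171. Rps26-ps1 had 8.69, 2.41, 4.95 and 5.94 FPKM in KO-labelled mice 1 to 4, against 7.69, 7.36, 7.98 and 6.92 FPKM in Atg5 WT mice. KO-labelled mouse 1 was the highest of the 8 and the other 3 KO-labelled libraries were below every Atg5 WT library, with a difference of -0.48 ± 0.27 and an exact permutation p of 0.171. With the mouse number as a block its unadjusted p in limma was 0.0443, and the adjusted p was 0.565. Rps10-ps1 differed by -0.12, and Rpl23a-ps3, Rps12-ps3 and Rps18-ps3 by 0.24, 0.13 and 0.11 in the other direction.

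Among mitochondrial genes, 2 of the 76 kept, Mrps33 and Mrps10, had all 4 KO-labelled values above all 4 Atg5 WT values, where 1.15% of all genes kept did so, and 0 had them all below, where 0.59% of all genes kept did so. Mrps33 (chr6:39801804-39810988), a small-subunit protein particular to mitochondrial ribosomes, had 12.97, 13.1, 12.7 and 14.0 FPKM in KO-labelled mice 1 to 4, against 11.9, 11.6, 11.3 and 11.5 FPKM in Atg5 WT mice. Its difference was 0.17 ± 0.086, with an exact permutation p of 0.0286, the smallest that 4 against 4 allows, and a limma adjusted p of 0.999. Mrps10 (chr17:47368887-47381417), a homolog of bacterial S10, had 5.86, 5.61, 5.15 and 4.79 FPKM in KO-labelled mice, against 4.79, 4.31, 4.69 and 4.33 FPKM in Atg5 WT mice. The lowest KO-labelled value of Mrps10 stood next to the highest Atg5 WT value, that of mouse 1, and the difference was 0.20 ± 0.10. None of the 91 cytosolic members kept had separate groups in either direction.

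Mrps18b, 1 of the mammalian homologs of bacterial S18, had 8.12, 6.76, 7.52 and 7.61 FPKM in KO-labelled mice 1 to 4, against 6.92, 6.34, 6.39 and 6.39 FPKM in Atg5 WT mice. The groups overlapped only through KO-labelled mouse 2, which lay under Atg5 WT mouse 1, and the difference was 0.18 ± 0.095 (exact permutation p = 0.0571). On the lower side, with none past the threshold, stood Mrps24, Mrps11 and Mrps12. Mrps24 had 25.2, 24.0, 28.3 and 31.1 FPKM in KO-labelled mice, against 30.2, 31.6, 30.8 and 31.9 FPKM in Atg5 WT mice, a difference of -0.20 ± 0.11. Mrps12, which lies at the decoding centre and whose ETS letters are shown above, had 15.0, 19.6, 23.4 and 26.2 FPKM in KO-labelled mice, against 19.6, 23.2, 27.3 and 26.8 FPKM in Atg5 WT mice. In every mouse number the KO-labelled library was the lower for Mrps12, while the mouse 1 libraries were the lowest of their groups. Mrps11 differed by -0.16 ± 0.12, and the most and least abundant small-subunit genes, Mrps21 and Mrps35, by -0.043 and 0.13.

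In the mitochondrial large subunit, Mrpl44, which carries a ribonuclease III-like fold, had 7.50, 4.86, 7.75 and 7.24 FPKM in KO-labelled mice 1 to 4, against 4.92, 5.64, 5.64 and 5.22 FPKM in Atg5 WT mice. KO-labelled mouse 2 was the lowest of the 8 and the other 3 KO-labelled libraries were the highest, with a difference of 0.29 ± 0.14 (exact permutation p = 0.143). Mrpl33 (chr5:31596935-31701972) had 19.7, 15.7, 17.0 and 17.8 FPKM in KO-labelled mice, against 18.8, 12.97, 13.2 and 13.2 FPKM in Atg5 WT mice. Atg5 WT mouse 1 was far above the other 3 Atg5 WT libraries and made the groups overlap, and the difference was 0.27 ± 0.14. The identifier of Mrpl33 had no match in the GENCODE release used, so its exon overlap and shared windows could not be examined. The promoter stretch of Mrpl33 shown above lies inside the span given here. Mrpl19 differed by 0.17 ± 0.11, and 35.5% of its 50-base windows are shared with Gcfc2.

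Of the large-subunit genes on the lower side, Mrpl28 had 29.5, 26.9, 32.2 and 32.1 FPKM in KO-labelled mice 1 to 4, against 33.6, 31.8, 36.8 and 36.5 FPKM in Atg5 WT mice, with overlapping groups and a difference of -0.19 ± 0.10. Mrpl12, the mitochondrial stalk protein, and Mrpl10, which anchors it, differed by -0.18 ± 0.14 and -0.19 ± 0.15. Mrpl12 had 8.39, 8.98, 10.3 and 13.1 FPKM in KO-labelled mice, against 10.5, 11.0, 12.5 and 12.3 FPKM in Atg5 WT mice, with the highest and the lowest value both in the KO-labelled group. The most abundant gene, Mrpl52, had 94.8, 94.3, 116 and 97.1 FPKM in KO-labelled mice, against 112, 101, 118 and 94.6 FPKM in Atg5 WT mice, a difference of -0.083. Mrpl47, low in both groups, differed by 0.15.

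**Figure D4:**
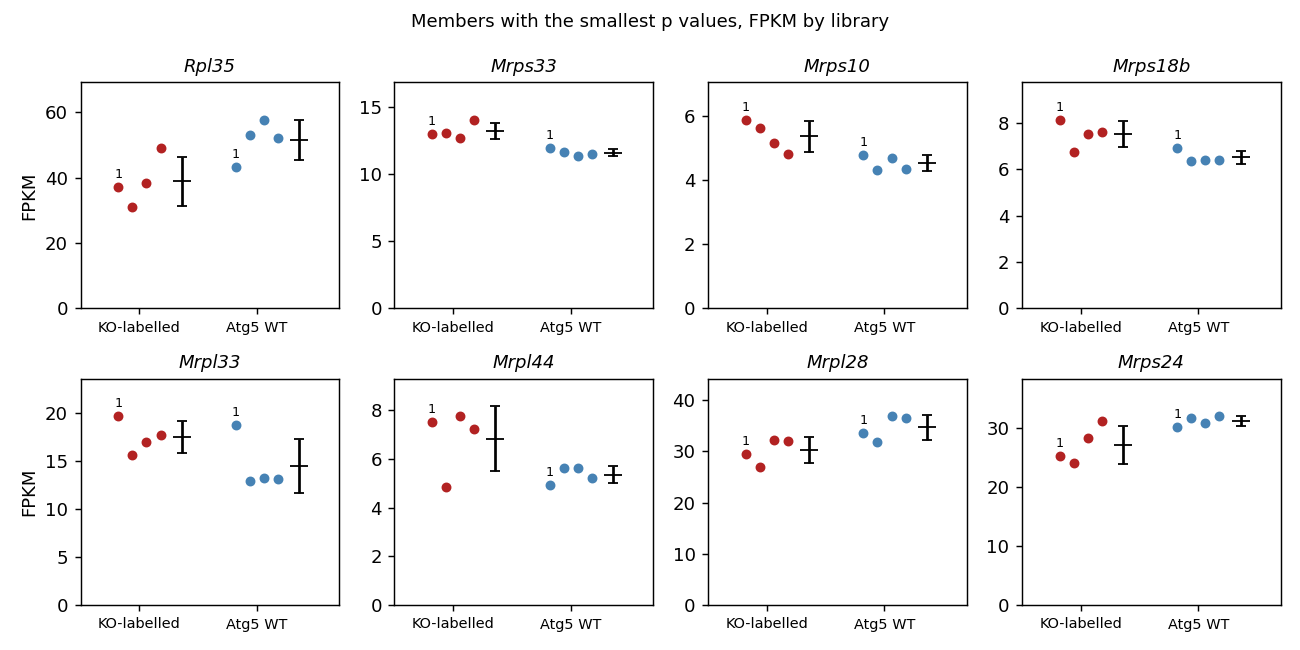
FPKM of 8 members in each library, on axes that start at 0; the library of mouse 1 is marked, and bars are the mean and SD of 4 libraries. Groups are separate for Mrps33 and Mrps10 and overlap for the other 6, and the Rpl35 values run from 31.1 to 48.9 FPKM in KO-labelled and from 43.1 to 57.6 FPKM in Atg5 WT libraries.

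With the mouse number as a block in the fit, which removes what both libraries of a number share, again no member passed, where 0.00908% of genes did (smallest adjusted p 0.494 for Rpl35 among cytosolic and 0.549 for Mrpl33 among mitochondrial members). In that fit 5.19% of all genes kept had an unadjusted p under 0.05 with a higher value in KO-labelled libraries and 3.62% with a lower one. Members reaching it were Rpl35 and Rps26-ps1, lower, among the cytosolic genes. Among the mitochondrial genes they were Mrpl33, Mrps9, Mrps30 and Mrpl44, higher, and Mrpl28 and Mrps12, lower. Mrps9 had 14.3, 11.3, 11.2 and 11.5 FPKM in KO-labelled mice 1 to 4, against 13.2, 8.97, 8.93 and 9.66 FPKM in Atg5 WT mice, and was higher in the KO-labelled library of each mouse number. The 4 of 76 higher and 2 of 76 lower mitochondrial members lie near these shares of all genes. Of the 91 cytosolic members, 0 were higher, below the 5.19% of all genes, and 2 were lower, beside 3.62%.

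Some members shifted further between mice than any kept member did between the groups, where Rps26-ps1 at -0.48 was the farthest from 0. In the mean of both mouse 1 libraries minus that of the other 6, on log2(FPKM + 1), Rps29 was at -0.77, Rps28 at -0.68 and Rpl41 at -0.51, while Rps4x was at 0.67, Rpl7 at 0.57 and Rps3a1 at 0.54. Rps29 had 372, 381, 752 and 701 FPKM in KO-labelled mice 1 to 4, against 390.3, 686, 843 and 654 FPKM in Atg5 WT mice, low in both mouse 1 libraries and in KO-labelled mouse 2. Rps4x, the X-linked form of a small-subunit protein, had 942, 599, 616 and 700.0 FPKM in KO-labelled mice, against 1024, 658, 576 and 569 FPKM in Atg5 WT mice, high in both mouse 1 libraries. Mitochondrial genes shifted as far, with Mrps30 at 0.72, Mrpl32 at 0.64, Mrpl14 at -0.48 and Mrps12 at -0.48. These genes were picked for this shift after their values were seen.

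The shift ran with base composition. Across genes, the shift of the mouse 1 libraries and the GC content of the longest transcript had a Spearman correlation of -0.42 over 77 cytosolic subunit genes, -0.63 over 75 mitochondrial genes and -0.64 over 10980 genes. KO-labelled mouse 2 against the 5 other libraries that are not of mouse 1 gave -0.46, -0.51 and -0.66. The difference between the groups gave -0.45, -0.53 and -0.48. Genes of a library share its preparation and depth, so these values describe the libraries. With the trend on GC subtracted from each library, a step added after the data were seen, the median difference was -0.050 for cytosolic and -0.027 for mitochondrial members, no member passed where 0.00911% of genes did, and Rpl35 stood at -0.34. After this step the correlation of the difference with GC was 0.42 for cytosolic subunit genes, opposite in sign to that before it, 0.047 for mitochondrial genes and 0.028 for all genes, so the trend was not removed from the cytosolic values. In that fit 1.41% of all genes had an unadjusted p under 0.05 in the higher and 1.51% in the lower direction. Members reaching it were Mrpl44 at 0.29 and Mrps18b at 0.19, higher, and Rpl35, lower, while Mrps33 moved to 0.084 and Rpl30 turned to -0.020.

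**Figure D5:**
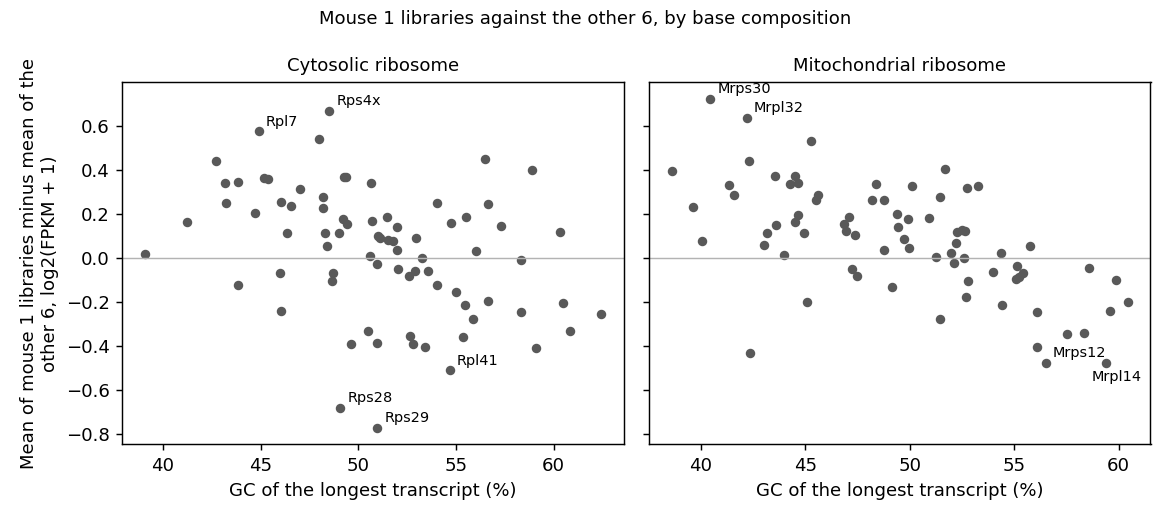
Mean of both mouse 1 libraries minus the mean of the other 6, on log2(FPKM + 1), against the GC content of the longest transcript in percent, for cytosolic subunit genes (left) and mitochondrial genes (right). Each point is a gene; the Spearman correlation is -0.42 on the left and -0.63 on the right, and Rps29 and Rps28 lie lowest.

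Across the 8 libraries, cytosolic genes were more often high and low together than mitochondrial genes. Over all pairs of genes, the median Pearson correlation was 0.47 for the 2926 pairs of cytosolic subunit genes, with 74.6% of pairs positive. It was 0.18 for the 2850 pairs of mitochondrial genes, with 60.9% positive, and 0.25 for the 5852 pairs of 1 gene from each. Between the cytosolic subunits, pairs of a large- and a small-subunit gene reached 0.49, close to pairs within the large (0.41) and within the small subunit (0.50). All pairs share the same 8 libraries, and the shifts of the mouse 1 libraries and of KO-labelled mouse 2 are part of these values. Mitochondrial members held 24626 to 43532 fragments a library, and cytosolic subunit genes 568521 to 1040532. The part of counting error in the lower mitochondrial correlations was not tested, and pairs of all genes kept were not examined.

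Genes that make, control or use the ribosomes also gave no call. Of 3 measured ribosomal proteins that do not carry family names, Fau had 799, 888, 1086 and 1151 FPKM in KO-labelled mice 1 to 4, against 929, 1104, 1213 and 1133 FPKM in Atg5 WT mice, a difference of -0.17, and Gnb2l1 (Rack1) differed by -0.077. The lists held 54 ribosome assembly factors, 15 genes of RNA polymerase I and its factors and 42 translation factors. They also held 16 genes of mTORC1 and TOP control and 14 of ribosome rescue and turnover. In limma without the block, 0 of these genes had an unadjusted p under 0.05 in either direction, beside 2.02% of all genes kept. The medians of the lists were 0.042, 0.039, 0.041, 0.022 and 0.052 in that order, beside 0.029 for all genes kept. With the mouse number as a block, 4 assembly factors (Nvl, Ddx10, Riok1 and Wdr75) reached that p, each higher in KO-labelled libraries. Taf1b and the translation factor Eif4a2 also did so on the higher side, and Taf1c and Akt1s1 on the lower. That fit had 5.19% of all genes kept on the higher side and 3.62% on the lower, and 0 listed genes passed after adjustment. The assembly factor Nvl differed by 0.27 and Riok1 by 0.20, Bop1 and Rrs1, which act on the large subunit, by -0.21 and -0.16. Of mTORC1 genes, Mtor differed by 0.10, its inhibitor Deptor by 0.17, and Akt1s1 and Lamtor1 by -0.24 and -0.13. Taf1b and Taf1c, both of the RNA polymerase I selectivity factor, differed by 0.28 and -0.34.

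On the mitochondrial side, 2 of 22 assembly factors had an unadjusted p under 0.05, 1 in each direction, beside 1.2% of all genes kept in the higher and 0.826% in the lower direction. Tfb1m, which dimethylates the small mitochondrial rRNA, had 3.10, 2.61, 2.79 and 2.86 FPKM in KO-labelled mice 1 to 4, against 2.17, 2.68, 1.96 and 1.99 FPKM in Atg5 WT mice, a difference of 0.27 ± 0.12 with overlapping groups. Mrm1, which methylates the large mitochondrial rRNA, had 8.03, 7.64, 9.92 and 10.5 FPKM in KO-labelled mice, against 9.48, 11.3, 13.5 and 12.2 FPKM in Atg5 WT mice, a difference of -0.34 ± 0.14, also with overlap (limma adjusted p = 0.999 for both). The 15 mitochondrial translation factors had a median of 0.064, the 15 mitochondrial tRNA synthetases -0.0088 and the 22 assembly factors 0.023. The 7 genes listed for mitochondrial ribosomal proteins with other names, a list that also holds Slirp, had 0.057. In the lists other than the assembly factors, 0 members had an unadjusted p under 0.05 in limma. Tufm, the mitochondrial elongation factor that brings aminoacyl-tRNA, had 36.02, 37.6, 37.9 and 39.8 FPKM in KO-labelled mice, against 38.5, 42.8, 41.3 and 44.6 FPKM in Atg5 WT mice, a difference of -0.14 ± 0.091. Mtif2 and Qrsl1 differed by 0.19 and 0.20 in the other direction, and Dap3, a ribosomal GTPase, by 0.077.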

How the data were processed

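RNA from sorted tumor macrophages was extracted with a Zymo kit and made into libraries with a NEBNext Ultra kit, per the labels' protocols. CASAVA, STAR and the genome build mm10 are listed, without versions or roles, per the submitters' processing notes. Neither names how fragments were counted, with which strand setting, or what was done with shared reads. FPKM values for 35275 genes were deposited by the authors with gene lengths. Multiplied by length, 100% of the values were whole fragments to within 0.01, which gave each gene's fragments.

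Genes averaging 1 FPKM or more were tested with limma 3.58.1 (R 4.3.3) on log2(FPKM + 1), two-sided, with a mean-variance trend and Benjamini-Hochberg adjustment over 11019 genes at 0.05. Single members also had an exact permutation test over all 70 assignments (Python 3.11.15, scipy 1.17.1; smallest p 0.0286), two-sided and unadjusted. Scripts were tested on simulated data. Intervals were not computed, and depth sets counting error only. All 8 libraries counted as samples, since every pair differed beyond sampling noise (lowest chi-square over its degrees of freedom 8.50).

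Members and lists were chosen with earlier results of these data known. Named were, in each of 5 classes, the 3 members of smallest p in each direction and those highest and lowest in level, members with separate groups, 14 members always named for their role, and genes from the lists of other pathways; some genes are not reported here. Members named for the mouse 1 shift were chosen after their values were seen.

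Mouse numbers are shared by the groups. Deviations of same-numbered libraries from their group means correlated at 0.841 (mouse 1), 0.208 (mouse 2), 0.458 (mouse 3) and 0.471 (mouse 4). As all exceeded 0.1, same-numbered libraries were treated as pairs in the blocked fit. For mice 2 to 4 alone the values were 0.297, -0.134 and 0.205. Mouse 3 was then below 0.1, so the pairing of mice 2 to 4 is uncertain. Pairing comes from these data and not from the labels.

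Shared windows of 50 bases, exon overlap and transcript GC used GENCODE release 21 for mouse, matched by gene identifier. Alternatives covered the pseudocount, filter, scaling, voom on recovered fragments, weights, the block, libraries left out and GC content.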

Additional observations from a re-analysis of the deposited data

Results flagged for a closer look

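In 11 of the 96 groups of 4 libraries examined, 1 library lay far from the nearest of the other 3 relative to the whole range, by the critical value of Dixon's test. Chance marks about 1 in 20 groups. The share over all genes is not given here, so the count cannot be read as particular to these members. Of the 11 values, 10 came from a mouse 1 library, which stood apart for all genes.

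Among KO-labelled libraries, Rpl23a-ps3 was at 11.1 FPKM in mouse 1, with the other 3 at 5.17 to 5.92 FPKM, and Rps12-ps3 was at 11.5 FPKM in mouse 1, with the other 3 at 4.38 to 5.31 FPKM. Mrpl52 was at 116 FPKM in KO-labelled mouse 3, with the other 3 at 94.3 to 97.1 FPKM.

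The remaining 8 were Atg5 WT mouse 1. Rps12-ps3 was at 11.1 FPKM there, against 4.10 to 4.86 FPKM in the other 3 Atg5 WT libraries. The Atg5 WT mouse 1 values were 18.8 FPKM for Mrpl33, 6.92 FPKM for Mrps18b, 117 FPKM for Rpl22, 151 FPKM for Rpl22l1, 1415 FPKM for Rps12 and 576 FPKM for Rps6, each the highest of its group. Rps2 was at 1119 FPKM in Atg5 WT mouse 1, the lowest of its group, with the other 3 at 1358 to 1374 FPKM.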

How the results depend on the processing

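Over the 22 alternatives fitted across genes, each with 152 to 181 members tested, 0 members passed, and their smallest adjusted p in limma was 0.184, with array weights. The GC correction, alone or with the block, and the fit without both mouse 1 libraries and KO-labelled mouse 2 were chosen after seeing the data. Over all genes, limma called 0 genes at the adjusted threshold, with 223 at an unadjusted p under 0.05. With the replicate block it called 1, Atg5 (limma adjusted p 0.00481), and voom called 0 without and 8 with the replicate block. The limma fits called 1 each under median-of-ratios scaling, quantile scaling, array weights, GC correction, without both mouse 1 libraries and without these and KO-labelled mouse 2, 2 under GC correction with the block, and 0 to 1 when leaving out each library in turn.

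The medians moved by less than the spread between libraries, with 1 exception. Without both mouse 1 libraries and KO-labelled mouse 2, the cytosolic median was 0.087 and the mitochondrial median 0.076. Leaving out each library in turn gave -0.072 to 0.025 for the cytosolic and -0.017 to 0.069 for the mitochondrial median. The cytosolic median was also above 0 under TPM (0.0020), quantile scaling (0.0031) and array weights (0.032), and the mitochondrial median below 0 under median-of-ratios scaling (-0.026), quantile scaling (-0.033), GC correction (-0.027) and a minimum mean of 5 FPKM (-0.0063). Median-of-ratios scaling put the median of all genes at 0.00032, against 0.029.

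Counts of members at an unadjusted p under 0.05 moved between settings, as did the shares of all genes at that p. The shares higher and lower in KO-labelled libraries were 6.96% and 4.67% with array weights, 5.79% and 4.33% without both mouse 1 libraries and KO-labelled mouse 2, 3.43% and 2.18% without both mouse 1 libraries, 6.68% and 3.47% with voom and the block, 4.51% and 4.15% under GC correction with the block, 1.71% and 0.626% under TPM and 1.09% and 0.941% with no filter. They were 5.19% and 3.62% with the block, and 1.41% and 1.51% under GC correction. Leaving out KO-labelled mouse 1, 2, 3 or 4 gave 0.989% and 0.989%, 1.12% and 0.962%, 0.962% and 0.898%, and 1.68% and 1.22%. Leaving out Atg5 WT mouse 1, 2, 3 or 4 gave 4.79% and 2.77%, 0.635% and 0.635%, 0.545% and 0.445%, and 0.898% and 0.644%. Cytosolic members higher in KO-labelled libraries numbered 0, but 1 with array weights and 5 without both mouse 1 libraries and KO-labelled mouse 2. Cytosolic members lower numbered 1, but 2 with the replicate block, array weights, GC correction with the block, without both mouse 1 libraries, and without these and KO-labelled mouse 2, and 0 to 2 when leaving out each library, with 2 without KO-labelled mouse 1 and 0 without KO-labelled mouse 2, Atg5 WT mouse 2 or Atg5 WT mouse 3. Mitochondrial members higher numbered 0, but 1 with no filter, 4 with the replicate block and with voom and the block, 2 under TPM, under GC correction with or without the block and without both mouse 1 libraries, 7 without these and KO-labelled mouse 2, and 10 with array weights. The range over single libraries left out was 0 to 2, with 2 without KO-labelled mouse 2 or Atg5 WT mouse 1. Mitochondrial members lower numbered 0, but 2 with the replicate block and 1 with voom and the block, and 0 to 2 when leaving out each library, with 2 without KO-labelled mouse 4. The cause was not tested.

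Of 610 values for 28 members named for their p or for separate groups, 21 over 9 members turned direction. Without both mouse 1 libraries and KO-labelled mouse 2, Mrps11 was at 0.027 and Rpl13 at 0.038. Under GC correction, with or without the block, Rpl30 was at -0.020, Rps12 at -0.046 and Rps15a at -0.036. Under median-of-ratios scaling Rps12 was at -0.00066 and Rps21 at -0.0060. When leaving out each library in turn, differences ran from -0.0090 to 0.59 for Rpl23a-ps3, from -0.14 to 0.42 for Rps12-ps3, from -0.026 to 0.28 for Rps18-ps3, from -0.031 to 0.15 for Rps12, from -0.027 to 0.18 for Rps15a and from -0.041 to 0.15 for Rps21. The blocked fit leaves each difference as it is and changed no call of a member. Differences of the size of the standard errors, about 0.13, were not detectable with 4 libraries a group.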
